A study of Mus musculus with 6 samples.

Results

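The genes described here are 10 that respond to fluid shear stress or to the coactivator YAP: Klf2, Klf4, Klf6, Ctgf, Cyr61, Ankrd1, Amotl2, Edn1, Bmp4 and Angpt2. They were taken by symbol and were 10 of the 21675 genes in the deposited tables. Ctgf and Cyr61 are the symbols that the tables use for Ccn2 and Ccn1. All 10 were among the 12729 genes that passed the filter on low counts.

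RNA was sequenced from a line of mouse aortic cells in which doxycycline switches on an SV40 gene (TetOn_SV40), and which is labelled endothelial. All cells were grown up with doxycycline and then plated without it in serum. The labels give 3 genotypes, each without TNF and with TNF at 30 ng/mL: the parental line (WT), 1 single-cell clone with a CRISPR deletion of Ptbp1 (PTBP1 KO), and that clone with a human PTBP1 cDNA (PTBP1 Rescue). Ptbp1 is an RNA-binding protein that represses many exons. The sources used here do not give the time under TNF, and nothing in the labels records flow, so the shear-responsive genes were measured in cells to which no flow is stated to have been applied. Each of the 6 groups had 1 library, with 19598773 to 21626838 counts, and there were no replicates.

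For 4 of the 6 libraries, file name and label disagree about the group. The names use 3 words for the line (basal, KO, rescue), and basal was taken to be the parental line, which they do not state. The names put the libraries labelled WT and KO in the basal line, the second of them with TNF. They put those labelled Rescue and WT_TNF in the KO line, again the second with TNF, and those labelled KO_TNF and Rescue_TNF in the rescue line, where only Rescue_TNF is named with TNF. Names and labels meet for WT and Rescue_TNF. Below, "named" refers to the file names and "labelled" to the labels.

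Genes that report on Ptbp1 and on TNF went against the labels. Ptbp2, a paralogue that Ptbp1 represses, was at 218.5 and 191.6 CPM (counts scaled to the library's total and by TMM factors) in the libraries labelled Rescue and WT_TNF, against 37.8 to 76.5 CPM in the other 4. Ccl2, a chemokine gene induced by TNF, reached 2037 CPM in the library labelled KO, whereas the library labelled KO_TNF had 50.3 CPM. Ptbp1 itself had 387 and 424 CPM in the pair named KO, without and with TNF. It had 338 and 423 CPM in the pair named basal, and 173 and 186 CPM in the pair named rescue, so its messenger level was not low in the libraries named KO. The counting does not tell an edited messenger from an intact one. Directions below therefore rest on the file names wherever a library is called named. Each comparison also gives the values by label of those of the 10 genes that it calls.

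The labelled cell type was set against marker genes, whose CPM were scaled to the library's total only, without TMM factors. Of 16 endothelial markers, 13 were below 5 CPM in every library, among them Pecam1, Cdh5, Kdr, Tek, Vwf and Nos3, and 2 were at 0 in all. Their summed level was 15.0 to 62.9 CPM. The 12 smooth muscle and fibroblast markers summed to 7855 to 18770 CPM, the 4 macrophage and blood markers found to 10.2 to 16.2 CPM, and the 4 epithelial markers to at most 1.12 CPM. Flt1, Egfl7 and Ecscr were the endothelial markers not below 5 CPM throughout. On the other side, the smooth muscle marker Myh11 was below 5 CPM in every library. Most of the endothelial markers were thus low in cells labelled aortic endothelial.

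Laminar flow over endothelium activates the kinases MEKK3 and ERK5 and the MEF2 factors, which switch on Klf2 and Klf4. These zinc-finger factors favour an anti-inflammatory, anti-thrombotic state. Disturbed flow is instead known for active YAP and TAZ, coactivators that bind DNA through the TEAD factors and raise Ctgf, Cyr61, Ankrd1 and Amotl2. Edn1, Bmp4 and Angpt2 encode secreted signals that steady flow is known to lower: a vasoconstrictor peptide, a growth factor that can inflame endothelium, and an antagonist of the receptor Tie2.

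Promoters are shown because several of the genes moved together and because the pathways act through known short motifs. RefSeq promoter sequences on build GRCm38.p6 were matched by symbol for 8 of the 10 genes, and the 250 bases before the start site were searched on both strands. The TEAD motif GGAATG was in 4 of the 8 promoters (Cyr61, Ankrd1, Amotl2 and Edn1) and in 12.6% of all 32851 promoters of that length. The E-box CACGTG was in those of Klf4, Klf6 and Bmp4 and in 6.02% of all. A spelling of the NF-kB motif that leaves some positions open (GGG, any 2 bases, TT, any base, CC) was in that of Bmp4 and in 4.11% of all. The MEF2 motif, CTA and TAG with any 4 bases between them, was in that of Klf2 and in 3.20% of all, and the AP-1 motif TGANTCA was in none of the 8 and in 6.75% of all. No matches in these promoters overlapped each other, and a match describes letters, not binding.

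The promoters of 4 genes that carry these matches follow, each 5′ to 3′ on the strand of its gene and with the matches in capitals. The first is Bmp4, the gene with the widest range of levels, upstream of its first exon at chr14:46390670-46390919 on the minus strand. Capitals mark the E-box and then the match to the open NF-kB spelling.
Bmp4: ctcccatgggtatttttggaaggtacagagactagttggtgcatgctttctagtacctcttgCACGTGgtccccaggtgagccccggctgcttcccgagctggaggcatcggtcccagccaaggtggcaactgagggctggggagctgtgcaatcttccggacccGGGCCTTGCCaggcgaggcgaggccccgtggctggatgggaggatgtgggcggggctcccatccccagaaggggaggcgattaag
Edn1 lies on the plus strand, and the bases before its start are chr13:42301226-42301475. Capitals mark CATTCC, the TEAD motif on the other strand.
Edn1: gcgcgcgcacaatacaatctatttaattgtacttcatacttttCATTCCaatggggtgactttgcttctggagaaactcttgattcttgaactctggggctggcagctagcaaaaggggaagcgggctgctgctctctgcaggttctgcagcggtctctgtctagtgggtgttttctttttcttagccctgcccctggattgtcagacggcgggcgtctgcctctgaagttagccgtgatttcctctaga
Cyr61, the most abundant of the 10, lies on the minus strand, with its promoter at chr3:145649986-145650235. Capitals again mark CATTCC.
Cyr61: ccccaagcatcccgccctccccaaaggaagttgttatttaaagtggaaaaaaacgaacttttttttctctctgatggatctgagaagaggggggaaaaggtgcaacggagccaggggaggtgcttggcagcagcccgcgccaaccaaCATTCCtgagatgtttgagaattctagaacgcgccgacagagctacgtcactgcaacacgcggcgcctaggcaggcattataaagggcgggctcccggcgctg
Klf2 lies on the plus strand, and the bases shown, chr8:72318812-72319032, stop where its annotated first exon begins. Capitals mark the MEF2 match, CTAAATTTAG.
Klf2: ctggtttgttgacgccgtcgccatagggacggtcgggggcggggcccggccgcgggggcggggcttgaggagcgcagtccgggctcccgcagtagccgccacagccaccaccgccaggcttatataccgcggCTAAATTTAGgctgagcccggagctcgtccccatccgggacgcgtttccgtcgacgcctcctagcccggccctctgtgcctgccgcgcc

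The TEAD matches of Ankrd1 and Amotl2 lay within annotated exons and are shown as short windows with the match in capitals. Ankrd1, on the minus strand, had a match from 210 bases before its start at chr19:36120037-36120066 and another from 123 bases before it at chr19:36119950-36119979. The window of Amotl2, on the plus strand, is chr9:102717727-102717756.
Ankrd1 first: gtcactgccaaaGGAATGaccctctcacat
Ankrd1 second: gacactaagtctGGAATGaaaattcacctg
Amotl2: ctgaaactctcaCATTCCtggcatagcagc

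Levels of the 10 genes relative to each other were compared in deposited TPM, which account for transcript length. By median TPM over the 6 libraries, the 4 YAP targets came first: Cyr61 at 323.4, Ankrd1 at 176.9, Amotl2 at 151.2 and Ctgf at 147.8. These matricellular proteins (Cyr61, Ctgf), the nuclear ankyrin-repeat cofactor Ankrd1 and the junctional scaffold Amotl2 were followed by Klf4 at 91.2, Klf6 at 68.1, Bmp4 at 46.5 and Klf2 at 20.2 TPM. Angpt2 at 2.91 and Edn1 at 2.36 TPM were lowest, with 35 to 249 and 14 to 109 counts per library. Most neighbours in this order overlapped across libraries. Amotl2 ranged from 67.0 to 266.1 TPM and Ctgf from 82.8 to 303.0 TPM, so these could not be ranked, and neither could Ankrd1 (142.4 to 243.9 TPM) against either of them. Klf2 (15.1 to 26.0 TPM) and Angpt2 (1.28 to 9.64 TPM) were neighbours whose ranges did not meet.

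**Figure D1:**
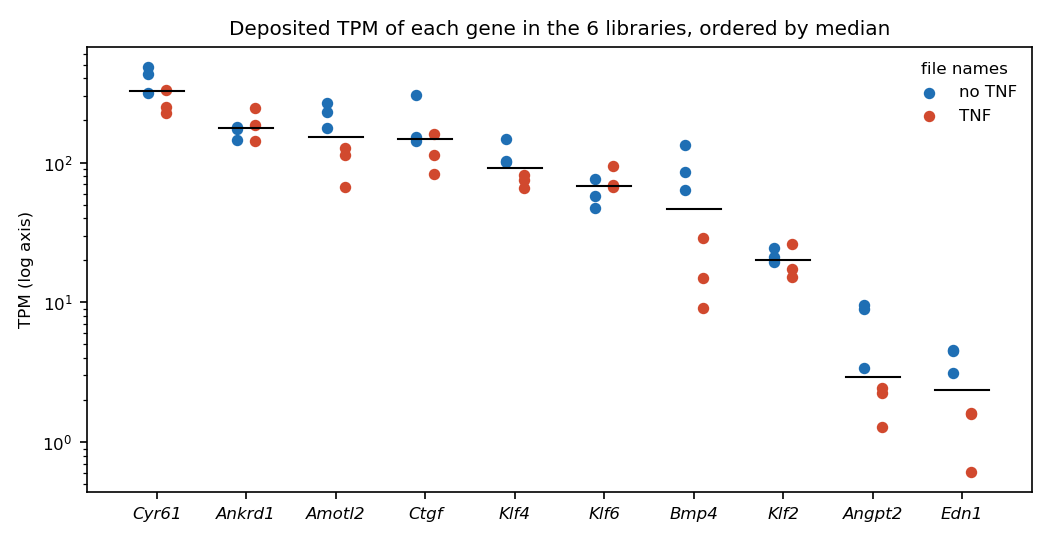
Deposited TPM of the 10 genes on a log axis, ordered by their median over the 6 libraries, with 1 point per library. Cyr61 has the highest median, 323.4 TPM, and Edn1 the lowest, 2.36 TPM, and Bmp4 spreads the widest.

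On the CPM scale, Bmp4 varied most, with 128 CPM in the library named KO against 9.32 CPM in the one named basal with TNF, a ratio of 13.7. Edn1 spanned 7.59-fold, Angpt2 6.58-fold, Amotl2 4.02-fold and Ctgf 3.20-fold. The other 5 spanned 1.70-fold to 2.21-fold, and Klf2 was the steadiest.

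**Figure D2:**
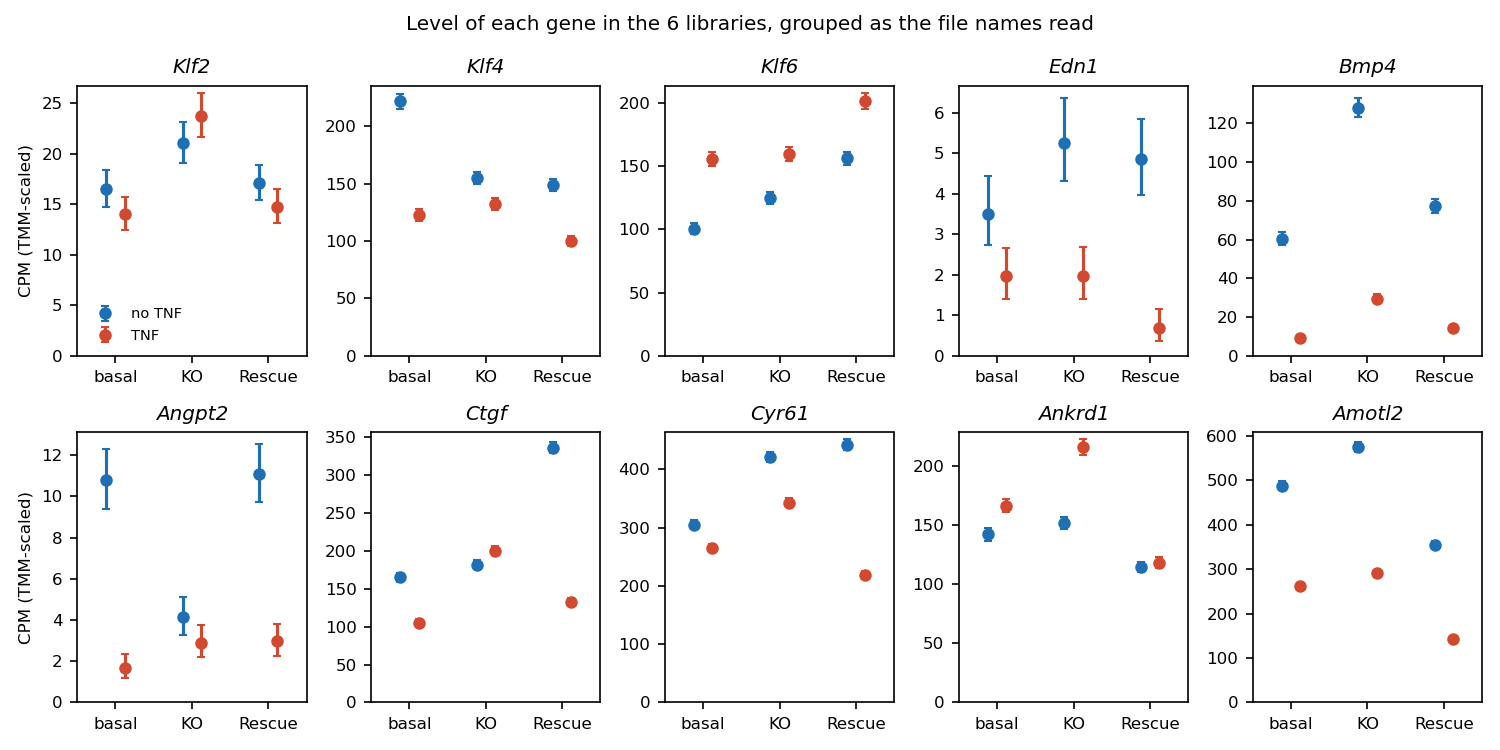
TMM-scaled CPM of each gene in the 6 libraries, grouped as the file names read, with bars for the 95% Poisson counting interval of each single library. Bmp4, Amotl2, Edn1, Angpt2 and Klf4 are lower in each of the 3 libraries named TNF than in any of the 3 named without it.

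With the labels' groups, none of the 10 genes passed the test in any comparison. The additive model of genotype and TNF over the 6 libraries called 0 of 12729 genes for TNF (0% higher, 0% lower), and likewise 0 when KO or Rescue was set against WT and Rescue was set against KO. Unadjusted p was under 0.05 for 491 genes for TNF, 29 for KO and 91 for Rescue against WT, and 27 for Rescue against KO, where DESeq2 called 93, 0, 9 and 3 genes. The lowest adjusted p of the 10 genes was 0.999 for TNF and 1 for the other 3 comparisons. Klf6, for example, was 0.46 ± 0.21 (SE) log2 units higher with TNF by label, and Amotl2 was -0.77 ± 0.52, neither past the threshold. The median of the 10 genes was -0.05 log2 units for TNF, 0.015 for KO against WT, -0.11 for Rescue against KO and -0.155 for Rescue against WT.

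With groups taken from the file names, 5 of the 10 genes fell with TNF and 1 rose. Over all genes tested, 10.8% fell, 11.2% rose and 22.0% changed either way at an adjusted p under 0.05. Bmp4, Amotl2, Edn1, Angpt2 and Klf4 fell, and Klf6 rose. The median of the 10 was -0.585 log2 units, against -0.01 over all genes. Adjusted p-values are those of edgeR's quasi-likelihood test with Benjamini-Hochberg adjustment. With 1 library per group, the test weighs the mean response against its variation among the 3 lines and knows no spread between cultures. In bulk RNA, fewer cells of a type and less RNA per cell cannot be told apart.

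Among the KLF factors, Klf4 had 222, 155 and 149 CPM in the basal, KO and rescue lines without TNF, and 123, 132 and 100.4 CPM in the same lines with TNF. All 3 values with TNF lay below all 3 without. The drop was 1.46-fold (log2 -0.55 ± 0.13, SE, adjusted p = 0.0406). Klf6, a relative known for its induction by injury, moved the other way, from 101, 125 and 156 CPM to 156, 160 and 202 CPM. Its rise of 1.37-fold (0.45 ± 0.08, adjusted p = 0.0223) occurred in each line, but the groups met, since the library named rescue without TNF was as high as the one named basal with TNF. Klf2 was at 16.5, 21.05 and 17.1 CPM without TNF and at 14.0, 23.8 and 14.75 CPM with it. Its difference of -0.09 ± 0.12 log2 units did not pass the test (adjusted p = 0.605), and the interleaved values show no common direction.

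The secreted signals gave the largest folds. Bmp4 was at 60.5, 128 and 77.1 CPM in the basal, KO and rescue lines named without TNF and at 9.32, 29.45 and 14.2 CPM with it. Every library named TNF was far below every other, and the fall was 5.31-fold (-2.41 ± 0.12, adjusted p = 0.00572). Edn1, the endothelin-1 precursor, went from 3.51, 5.26 and 4.845 CPM to 1.97, 1.97 and 0.693 CPM, the last resting on 14 counts. The groups did not overlap, and the fall was 3.02-fold (-1.59 ± 0.39, adjusted p = 0.045). Angpt2 went from 10.8, 4.13 and 11.1 CPM to 1.68, 2.88 and 2.97 CPM. The KO line was low without TNF and had the smallest drop, and the fitted fall was 3.26-fold (-1.71 ± 0.41, adjusted p = 0.0446).

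The YAP targets did not move as a block. Amotl2, a scaffold that binds YAP and is itself a YAP target, was at 488, 574 and 355 CPM without TNF and at 262, 290.3 and 143 CPM with it. All libraries named TNF were below all others, and the fall was 2.09-fold (-1.06 ± 0.10, adjusted p = 0.00861). Cyr61, at 305, 421 and 442 CPM without TNF and 264, 343 and 219 CPM with it, was lower with TNF in each line. Its difference of -0.50 ± 0.17 did not pass (adjusted p = 0.0934), and the KO library with TNF lay above the basal one without. Ctgf, at 165, 182 and 337 CPM without TNF and 105, 200.5 and 132 CPM with it, was lower in the basal and rescue lines and higher in the KO line (-0.62 ± 0.28, adjusted p = 0.166). Ankrd1, a stretch-induced cofactor, was at 142, 152 and 115 CPM without TNF and at 166, 216 and 118 CPM with it (0.26 ± 0.10, adjusted p = 0.121), so the YAP targets that missed the threshold were not all on the same side of 0.

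In all, 5 of the 10 genes were lower in every library named TNF than in every library named without it, against 9.51% of all genes, and 0 of 10 were higher without overlap, against 10.5% of all genes. The sum of the smooth muscle and fibroblast markers, in CPM without TMM factors, was lower with TNF as well. It went from 18770, 14770 and 16820 CPM in the basal, KO and rescue lines to 9834, 9820 and 7855 CPM. This sum does not show how each of the markers moved. The part of these markers in the results was not tested. The calls depended on single libraries. Without either library named rescue, 0 of the 10 genes and 3 of all genes passed, and Bmp4, the clearest, had an adjusted p of 0.131 or 0.132 at a log2 fold change of -2.395. Without either library named basal, Amotl2 and Bmp4 passed and the other 4 did not. Without either library named KO, all 6 passed, and Ctgf and Cyr61 passed as well. By label, where none passed, the TNF values of the 6 were -0.62 for Bmp4, -0.77 for Amotl2, -0.79 for Edn1, -0.0018 for Angpt2, -0.37 for Klf4 and 0.46 for Klf6. Ctgf, at -0.62 by name, was at 0.49 by label.

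Line by line, the fall of Bmp4 with TNF was seen in all 3 pairs of libraries and those of Amotl2, Cyr61 and Ctgf were largest in the rescue pair. These are ratios of 1 library to another, with 95% intervals that cover counting error only. Bmp4 was lower by 6.43-fold in the basal line (log2 -2.68, interval -2.92 to -2.48), 4.34-fold in the KO line (-2.12, -2.25 to -1.99) and 5.42-fold in the rescue line (-2.44, -2.63 to -2.26). At least 2-fold lower with TNF were 2 of the 10 genes in the basal line (Bmp4 and Angpt2), against 6.13% of all genes, and 2 in the KO line (Edn1 and Bmp4), against 3.91%. In the rescue line, 6 were at least 2-fold lower (Ctgf, Cyr61, Amotl2, Edn1, Bmp4 and Angpt2), against 4.45% of all genes. None of the 10 was 2-fold higher in any line, against 5.74%, 2.73% and 4.42% of all genes.

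Ctgf differed most in direction. Its log2 ratio was -0.65 (-0.73 to -0.57) in the basal line, 0.14 (0.075 to 0.205) in the KO line and -1.35 (-1.41 to -1.28) in the rescue line. The small rise in the KO line depended on scale, at 0.106 in unscaled CPM and 0.059 in deposited TPM. Cyr61, its relative in the CCN family, had ratios of -0.205, -0.30 and -1.02 in that order. Angpt2 had -2.61, -0.50 and -1.86, so that its KO pair, like that of Ctgf, stood above the other pairs. A model in which the KO line has a TNF response of its own, added after seeing the data and with 1 residual degree of freedom, called 0 of the 10 genes, against 1.37% of all. In it the response of Ctgf in the KO line exceeded that in the other lines by 1.14 ± 0.25 log2 units (adjusted p = 0.0877) and that of Angpt2 by 1.73 ± 0.45 (adjusted p = 0.146). At an unadjusted p under 0.05, 5 of the 10 and 1322 of all genes passed. TNF target genes themselves responded unequally: Vcam1, an adhesion molecule, went from 114 to 1451 CPM in the basal line, from 46.5 to 217.5 CPM in the KO line and from 67.0 to 871 CPM in the rescue line.

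**Figure D3:**
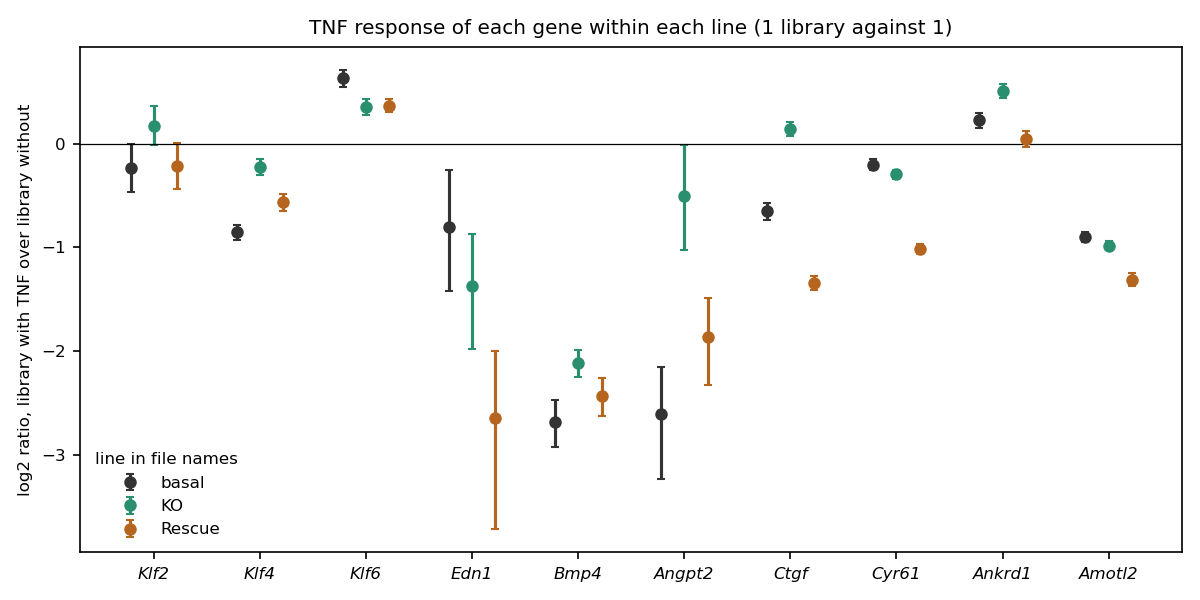
Log2 ratio of the library named TNF to the one named without it, for each gene and line, with bars for the 95% counting interval. Bmp4 is below -2 in all 3 lines, and Ctgf is at -0.65, 0.14 and -1.35 in the basal, KO and rescue lines.

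Libraries named KO were compared with those named basal over both treatments. If the file names hold, this asks how the KO line differed from the parental line. By label the KO line is a single-cell clone, so loss of Ptbp1 cannot be told apart from other traits of that clone. Bmp4 and Klf2 were higher, and none of the 10 was lower. Over all genes, 16.8% were higher, 16.3% lower and 33.0% changed either way. Bmp4 was 128 against 60.5 CPM without TNF and 29.45 against 9.32 CPM with it, a 2.54-fold rise (1.35 ± 0.15, adjusted p = 0.00559). Klf2 was 21.05 against 16.5 CPM and 23.8 against 14.0 CPM, a 1.47-fold rise (0.56 ± 0.14, adjusted p = 0.0381). Both genes were higher in the KO library of each treatment. With 2 of 10 called against 33.0% of all genes, the share of the list was below the background.

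The other 8 genes did not pass. Cyr61 (0.42 ± 0.21, adjusted p = 0.182), Ctgf (0.58 ± 0.34, adjusted p = 0.239), Amotl2 (0.19 ± 0.12, adjusted p = 0.265) and Ankrd1 (0.24 ± 0.12, adjusted p = 0.187), the YAP targets, all had positive values. Klf6 was at 0.17 ± 0.09 (adjusted p = 0.223), Klf4 at -0.21 ± 0.15 (adjusted p = 0.348), Edn1 at 0.30 ± 0.46 (adjusted p = 0.643) and Angpt2 at -0.46 ± 0.51 (adjusted p = 0.517). Klf4 and Angpt2 had opposite signs in the 2 treatments. In the libraries without TNF, Klf4 was 1.43-fold lower and Angpt2 2.57-fold lower in KO, and with TNF they were 1.08-fold and 1.68-fold higher. At least 2-fold higher without TNF was Bmp4, 1 of 10 genes against 5.08% of all, and at least 2-fold lower was Angpt2, 1 of 10 against 8.56%. With TNF, Bmp4 was again the 1 gene at least 2-fold higher, against 6.34% of all, and 0 of 10 were 2-fold lower, against 10.1%. Klf2 lost its call when any 1 of 5 libraries was left out (adjusted p from 0.0717 to 0.16) and kept it without the library named KO without TNF, whereas Bmp4 kept its call throughout. By label, neither passed, and Klf2 had the opposite sign (-0.37), with Bmp4 at 0.27.

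Libraries named rescue were then compared with those named KO. If the file names hold, this asks how the line with the human PTBP1 cDNA differed from the KO line. Effects of the cDNA cannot be told apart from other differences between these lines. Ptbp2 was at 67.6 and 76.5 CPM in the rescue line without and with TNF, still above the 38.2 and 37.8 CPM of the basal line. Ankrd1, Amotl2 and Bmp4 were lower and none of the 10 was higher, against 10.6% of all genes lower, 9.79% higher and 20.4% changed. Bmp4 was 77.1 against 128 CPM without TNF and 14.2 against 29.45 CPM with it, a 1.85-fold drop (-0.89 ± 0.15, adjusted p = 0.0222). Amotl2 was 355 against 574 CPM and 143 against 290.3 CPM, a 1.81-fold drop (-0.85 ± 0.12, adjusted p = 0.0166). Ankrd1 was 115 against 152 CPM and 118 against 216 CPM, a 1.56-fold drop (-0.64 ± 0.12, adjusted p = 0.0302). In each of the 3 genes both rescue libraries lay below the KO library of the same treatment.

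Klf2 (-0.50 ± 0.14, adjusted p = 0.0654) and Klf6 (0.33 ± 0.09, adjusted p = 0.0657) fell just short of the threshold. Ctgf and Cyr61 had opposite signs in the 2 treatments. Ctgf was 1.85-fold higher in rescue without TNF and 1.51-fold lower with it, and Cyr61 was 1.05-fold higher and 1.57-fold lower. Without TNF, Angpt2 was the 1 gene at least 2-fold higher, against 5.41% of all, and 0 of 10 were 2-fold lower, against 5.19%. With TNF, 0 of 10 were 2-fold higher, against 6.81%, and Amotl2, Edn1 and Bmp4 were at least 2-fold lower, against 5.19%, with Edn1 resting on 14 and 39 counts. All 3 calls were lost without either library named rescue, where the adjusted p of Amotl2 was 0.155 or 0.199. By label, none passed, and Bmp4 had the opposite sign (0.24), with Amotl2 at -0.08 and Ankrd1 at -0.05.

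Against the basal line, the rescue line had higher Klf6 and lower Amotl2, 1 gene of the 10 in each direction against 12.5% and 12.1% of all genes and 24.6% either way. Klf6 was 156 against 101 CPM without TNF and 202 against 156 CPM with it (0.50 ± 0.09, adjusted p = 0.0237). Amotl2 was 355 against 488 CPM and 143 against 262 CPM (-0.66 ± 0.12, adjusted p = 0.021). Bmp4 was above the basal line by 0.45 ± 0.15 (adjusted p = 0.0836), Ankrd1 was at -0.40 ± 0.12 (adjusted p = 0.0744), Klf4 at -0.44 ± 0.15 (adjusted p = 0.0983) and Ctgf at 0.73 ± 0.34 (adjusted p = 0.178). Without TNF, Ctgf was the 1 gene at least 2-fold higher, against 3.78% of all, and 0 were 2-fold lower, against 7.13%. With TNF, 0 were 2-fold higher, against 4.87%, and Edn1 was the 1 gene 2-fold lower, against 7.86%. Both calls were lost without either library named rescue, that of Klf6 also without the library named basal (adjusted p = 0.0748), and that of Amotl2 also without the one named basal with TNF (adjusted p = 0.0855). By label, neither passed, with Klf6 at 0.32 and Amotl2 at -0.26. The 3 comparisons of lines share libraries, so their values are not independent.

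**Figure D4:**
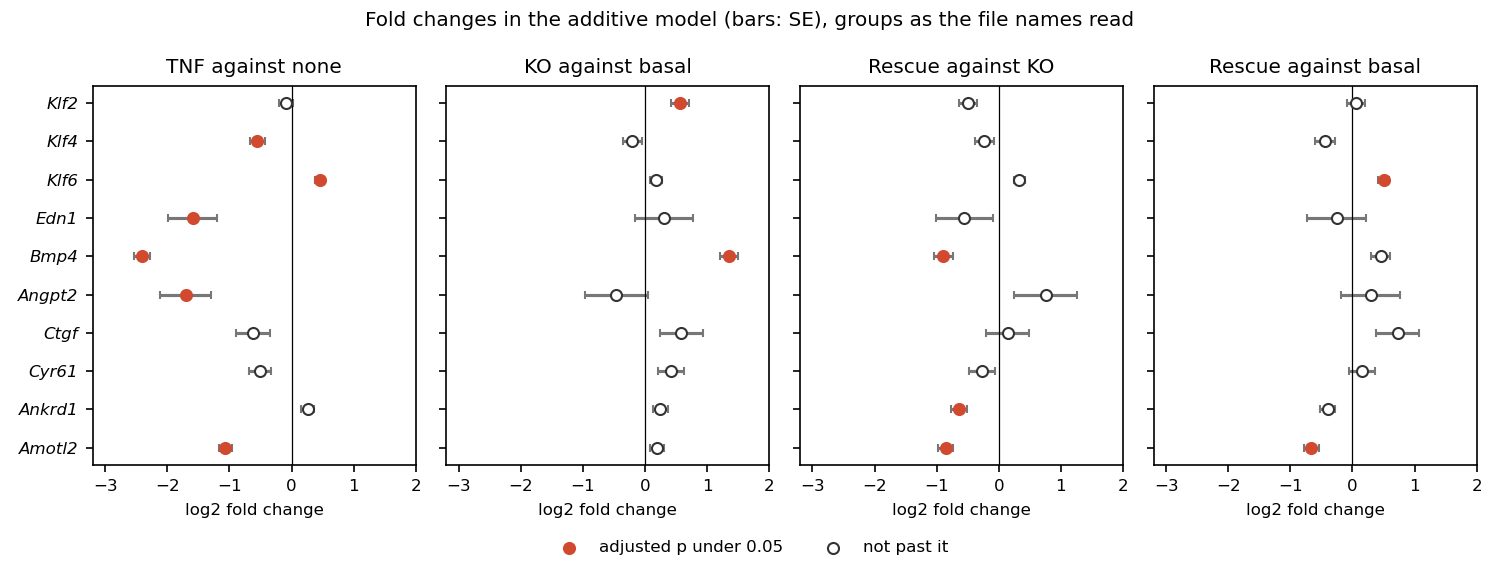
Log2 fold changes of the 10 genes in the additive model for TNF, KO against basal, rescue against KO and rescue against basal, with groups as the file names read and bars for the SE. Filled red points are past the threshold and open ones are not, and Bmp4 is past it for TNF (-2.41), KO against basal (1.35) and rescue against KO (-0.89).

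Other genes of the same pathways were taken from lists, and their counts stand for the lists with no test of the list. Groups for all of these genes are as the file names read. By label, the same edgeR test called 0 of 12729 genes in every comparison. The counts with TNF stand beside 11.2% of all genes that rose, 10.8% that fell and 22.0% either way. Of 24 other YAP and TEAD targets tested, 6 rose and 5 fell with TNF, with a median of 0.04 log2 units. Tead1, Lats2, Ptpn14, Amotl1 and Wwc1 are in this list and also in that of the core genes, so a call of any of them counts in both. Tgfb2, a growth factor, fell (-1.47, adjusted p = 0.00657), as did F3, the initiator of coagulation (-1.40, adjusted p = 0.00837), and Ccdc80, a matrix protein (-1.02, adjusted p = 0.00837). Igfbp3, an IGF carrier, was also past the threshold, at 0.254 and 10.4 CPM without and with TNF in the basal line and 0.178 and 2.33 CPM in the rescue line, but its level in the library named KO with TNF was 0 CPM. Of 21 Hippo and YAP core genes, 2 rose and 1 fell: the kinase Map4k4 (1.26, adjusted p = 0.0266) and the factor Tead1 (0.45, adjusted p = 0.036) rose, and Amot, the founder of the angiomotin family of Amotl2, fell (-1.08, adjusted p = 0.0423). Of the 19 genes tested from the MEKK3, ERK5 and MEF2 route, only Mef2c passed, and it fell (-1.52, adjusted p = 0.0107).

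Of 11 other KLF factors, 1 rose and 3 fell with TNF. Klf10, induced by TGF-beta, rose (1.01, adjusted p = 0.0227), and Klf15 (-1.52, adjusted p = 0.0199), Klf3 (-0.70, adjusted p = 0.0085) and Klf11 (-0.47, adjusted p = 0.0437) fell. Of 3 other CCN genes, Wisp2 fell (-1.45, adjusted p = 0.012) and Wisp1 rose (0.35, adjusted p = 0.0358). Of 21 other flow-responsive genes, 7 rose and 3 fell, led by Ccl2 (4.69, adjusted p = 0.00871), Icam1 (4.58, adjusted p = 0.00971) and Vcam1 (3.21, adjusted p = 0.01), which are TNF targets as well, and Pdgfb, a growth factor (2.06, adjusted p = 0.0143). Of 16 immediate-early and SRF-linked genes, 8 rose and 1 fell, with Egr2 (2.36, adjusted p = 0.00617), Junb (1.94, adjusted p = 0.0146), Fosl1 (1.75, adjusted p = 0.00657) and Ier3 (1.49, adjusted p = 0.0085) in front.

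Around the secreted signals, 5 of 22 BMP-axis genes rose and 5 fell with TNF. Bmp2, a sister ligand, rose where Bmp4 fell, from 0.254, 0.197 and 1.42 CPM to 6.06, 0.759 and 9.31 CPM in the basal, KO and rescue lines (3.12, adjusted p = 0.0157). Acvrl1, the receptor ALK1, rose (1.47, adjusted p = 0.0116), and the BMP antagonist Chrd fell (-1.54, adjusted p = 0.0138). Of 3 endothelin-axis genes tested, Mme, the protease neprilysin that degrades endothelin, fell (-1.88, adjusted p = 0.00285). Of 4 angiopoietin-axis genes, Foxo1, a factor that drives Angpt2, fell (-0.31, adjusted p = 0.0358).

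For KO against basal, the counts stand beside 16.8% of all genes that rose, 16.3% that fell and 33.0% either way. Among other YAP targets 5 rose and 7 fell of 24, including a fall of F3 (-1.63, adjusted p = 0.00329). Of the core genes 3 rose and 2 fell of 21, and Wwc1, an upstream Hippo scaffold, rose (1.11, adjusted p = 0.0086). In the BMP axis 3 rose and 6 fell of 22. Bmp6 was at 9.70 and 5.91 CPM in the basal line and 0.689 and 0.759 CPM in the KO line (-3.39, adjusted p = 0.00396), where Bmp4 was higher. The rescue line was low in Bmp6 too (1.51 and 0.792 CPM), with Bmp4 at 77.1 and 14.2 CPM. Of 3 other CCN genes 2 fell, with Nov at -1.17 (adjusted p = 0.0102). Mme was also lower in KO (-2.03, adjusted p = 0.000911). Of the flow-responsive genes 5 rose and 3 fell of 21, and of the KLF factors 3 rose and 2 fell of 11.

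For rescue against KO, where 9.79% of all genes rose, 10.6% fell and 20.4% changed either way, 3 of 24 YAP targets rose and 4 fell, and 1 of 21 core genes rose, Nf2, and 1 fell, Sav1. Nf2, the merlin gene, was at 0.35 (adjusted p = 0.0303) and Sav1, a scaffold of the Hippo kinases, at -0.44 (adjusted p = 0.0193). In the BMP axis 4 of 22 rose and 3 fell. The ligand Bmp2 (3.50, adjusted p = 0.0228) and the receptor Acvrl1 (1.02, adjusted p = 0.0403) rose, and Id2, a transcriptional target of BMP signalling, fell (-1.07, adjusted p = 0.0198). For rescue against basal, where 12.5% of all genes rose, 12.1% fell and 24.6% changed either way, 3 of 21 core genes rose and 1 fell. Wwc1 (0.87, adjusted p = 0.0194), the Hippo kinase gene Stk4 (0.41, adjusted p = 0.034) and Nf2 (0.31, adjusted p = 0.0325) rose, and Yap1 itself was lower (-0.34, adjusted p = 0.0424), from 167 and 196 CPM to 143 and 144 CPM without and with TNF.

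Genes whose profile over the 6 libraries was most like each member's were found by Pearson's r of log2 CPM, among 4652 genes that ranged over at least 1 log2 unit. These values are descriptions over 6 points that share the TNF contrast and carry no p. Bmp4 was followed by Aldh1a1, a retinaldehyde dehydrogenase (0.999), and Foxc1, a forkhead factor (0.995). Klf4 was followed by Cd248 (0.993) and Usp11 (0.993), Klf6 by BC022687 (0.999) and P2ry2 (0.993), and Klf2 by Spire2 (0.986) and 6430562O15Rik (0.985). Ankrd1 was followed by Nes, the intermediate filament nestin (0.995), and Rgs20 (0.981), and Amotl2 by Xrra1 (0.993) and Galnt10 (0.990). Cyr61 was followed by Gadd45g (0.967) and Thbs1, the matricellular thrombospondin-1 (0.965), and Ctgf by Popdc2 (0.963) and Dusp27 (0.958). Of these, 6430562O15Rik, Xrra1, Popdc2 and Rgs20 were low, at 0.0961 to 2.02 CPM, and Dusp27 was at 0.240 to 4.27 CPM. With 57 genes at r of 0.95 or more for Bmp4 and 4 for Ctgf, high values were easily reached by some profiles and rarely by others.

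Among the members themselves, Amotl2 and Edn1 were most alike (r = 0.932 over 6 libraries), and Klf4 and Klf6 most opposed (r = -0.957). Klf6 also ran against Amotl2 (r = -0.886). The YAP targets were not one profile: Ctgf and Cyr61 had r = 0.813, Cyr61 and Amotl2 0.761, and Ankrd1 had 0.159 with Amotl2, 0.049 with Cyr61 and -0.234 with Ctgf.

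Splicing of the members was read from the deposited percent-spliced-in values (psi, a fraction from 0 to 1), since Ptbp1 acts on exons. In 7 of the genes, 42 nodes not typed as transcript starts or ends had at least 20 reads in every library. They include alternative first exons, and 40 of the 42 varied by less than 0.05 over the 6 libraries. All 28 cassette nodes did so, the widest range being 0.028. The 2 wider ones were both in Amotl2. An alternative first exon had psi 0.899 in the library named KO with TNF and 0.969 to 1 in the others, on 29 to 129 reads, and an alternative donor had 0.092 there and 0.032 to 0.065 elsewhere, on 35 to 154 reads.

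Nodes at transcript starts and ends varied more, 21 of 31 staying below 0.05. The first of the alternative start nodes of Ankrd1 had psi 0 in the library named basal, on 45 reads, and 0.778 to 0.879 in the other 5. That of Klf6 had 0.715, 0.512 and 0.682 in the basal, KO and rescue lines without TNF and 0.815, 0.867 and 0.748 with TNF, on 90 to 190 reads. The upstream node was thus higher with TNF in each line. The first of the end nodes of Ctgf had psi 0.840 and 0.890 in the libraries named basal and 0.954 to 0.998 in the other 4. The other end node, chr10:24598679-24598683, is only the last few bases of the gene. The last end node of Amotl2, chr9:102733414-102733418, is as short. Its psi ranged from 0.566 in the library named rescue with TNF to 0.832 in the one named basal, on 1150 to 4430 reads. Reads over annotated junctions moved with the levels: for Bmp4 they numbered 352, 825 and 534 in the basal, KO and rescue lines without TNF and 59, 188 and 97 with it. For Amotl2 they numbered 3556, 4561 and 2778 without TNF and 2168, 2197 and 1072 with it. Junction reads outside the annotation were at most 5 per library in any of the 10 genes.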

How the data were processed

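The authors deposited expected counts and TPM for genes, made with RSEM per the submitters' processing notes. Aligner, build and RSEM version: not given in the sources used here. The library labelled Rescue came by transcript, and its values were added up by gene. Per the file headers, there were also deposited estimated counts from another quantification, psi as a fraction of the reads at a node, and junction read counts. Node and gene coordinates were read on GRCm38 with GENCODE vM21.

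The 10 genes, the other lists and the rules were chosen with earlier results of these data known. Expected counts were rounded and tested with edgeR 4.0.16 (R 4.3.3, TMM factors, filterByExpr, quasi-likelihood test, Benjamini-Hochberg adjustment over 12729 genes, threshold 0.05). The additive model of genotype and TNF over 6 libraries leaves 2 residual degrees of freedom. Groups were taken from the labels and, separately, from the file names. SE was taken as log2 fold change over √F. The procedure was tested on simulated counts in which the TNF effect was the same in every line. That test therefore does not bear on responses that differ among lines, or on the spread between cultures. A prior count of 2 went into single-library ratios, and levels carry exact Poisson 95% intervals that cover counting error only. Totals were 19598773 to 21626838 counts per library. The intervals are widest for Edn1 and Angpt2. They are also wide beside the effects of TNF on Klf2, which had 292 to 470 counts per library. Bmp4 had 194 counts in the library named basal with TNF. Nodes needed 20 reads in each library. For likeness, the genes named were the 2 with the highest r for each member whose mean was at least 10 CPM. Genes named from each list were taken from the up to 4 with the largest change past the threshold. In the comparisons of lines only some of these are named, and not always those with the largest change. A gene that this rule names is not reported here. Alternatives were RLE factors, DESeq2 1.42.0, no filter, the other quantification, each library left out, a prior of 0.5, unscaled CPM and TPM. Transcript-level values of the other quantification were left out.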

Additional observations from a re-analysis of the deposited data

Results flagged for a closer look

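Some log2 ratios of single libraries, with groups as the file names read, had opposite signs under the same contrast in different lines or treatments, with counting intervals that leave out 0. Of these differences, that of Ctgf with TNF was tested, in the model in which the KO line has a TNF response of its own (adjusted p = 0.0877, not past the threshold). The same term bears on the differences for KO against basal and rescue against KO. It was 0.48 for Klf4, 1.73 for Angpt2 and 0.31 for Cyr61, none past the threshold. It sets the KO line against the other lines together, so no pair of lines was tested alone. Differences for rescue against basal were not tested. With TNF, Ctgf was at -0.652 in the basal line and -1.346 in the rescue line, but at 0.14 in the KO line (0.059 in deposited TPM). For KO against basal, Klf4 was at -0.518 without TNF and 0.109 with it, and Angpt2 at -1.362 without and 0.745 with it. For rescue against KO, Ctgf was at 0.888 without TNF and -0.598 with it, and Cyr61 at 0.07 and -0.648. For rescue against basal, Cyr61 was at 0.537 without TNF and -0.274 with it, and Edn1 at 0.456 and -1.387, the last on 14 counts.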

How the results depend on the processing

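With groups as the file names read, RLE factors, no filter and the other quantification left all 40 tests of the 10 genes in their direction and on their side of the threshold. DESeq2 did so for 38 and added 2 calls, Cyr61 for TNF (adjusted p = 0.0259) and Ankrd1 for rescue against basal (adjusted p = 0.0414). RLE factors moved the median of all genes by at most -0.019 log2 units. With the labels' groups, DESeq2 called 93 genes for TNF, 3 for Rescue against KO and 9 for Rescue against WT where edgeR called 0, none of them among the 10, and leaving out any 1 library left 0 calls in every comparison.

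Leaving out 1 library at a time, which leaves 1 residual degree of freedom and lets a lone library of a line stand for it, moved the calls by file name widely. For TNF, 3 to 3744 of all genes and 0 to 8 of the 10 passed (2802 and 6 with all libraries). For KO against basal, 1075 to 4048 and 1 to 4 passed (4204 and 2). For rescue against KO, 0 to 2716 and 0 to 5 passed (2601 and 3), and for rescue against basal, 0 to 4581 and 0 to 6 (3128 and 2). The lowest counts over all genes came without a library named rescue, and the cause was not tested. The sign turned in at least 1 of these fits for some values, none of which had passed the threshold with all libraries. As log2 fold changes, for KO against basal these were Klf4 (-0.445 to 0.037), Ctgf (-0.04 to 1.101), Edn1 (-0.346 to 0.825) and Angpt2 (-1.246 to 0.485). For rescue against KO they were Klf4 (-0.469 to 0.014), Ctgf (-0.413 to 0.728), Cyr61 (-0.671 to 0.093), Edn1 (-1.663 to 0.005) and Angpt2 (-0.177 to 1.552). For rescue against basal they were Klf2 (-0.042 to 0.178), Cyr61 (-0.247 to 0.518), Edn1 (-1.342 to 0.328) and Angpt2 (-0.196 to 1.214).

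Of 270 ratios of single libraries under another prior or scale, 210 moved by less than their counting interval, 56 moved by more and 4 changed sign: Ankrd1 with TNF in the rescue line (-0.033 in TPM), Edn1 for KO against basal with TNF (0 in unscaled CPM), and Klf4 for rescue against KO without TNF (0.012 in unscaled CPM, 0.034 in TPM). The additive model already pairs the libraries with and without TNF by line. Beyond that, no paired analysis by replicate number was possible because the labels carry none. Depth limits Edn1 and Angpt2 most, at 14 to 109 and 35 to 249 counts per library.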
